A study of Mus musculus with 16 samples.

Results

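Med26, a subunit of the Mediator coactivator, and RNA polymerase II (Pol II) were mapped by chromatin immunoprecipitation with sequencing (ChIP-seq) in neural progenitor cells that had received a control siRNA, and the positions of the 2 factors were set against each other. The starting cells were mouse embryonic stem cells of the established line V6.5. They passed through embryoid bodies for 4 days, were grown as a monolayer in ITSF medium, were transfected with an siRNA against luciferase 72 hours before harvest and were crosslinked with 1% formaldehyde. Each factor had 1 library, so each difference below is between single libraries, without replicates and without p-values. Libraries of other groups serve as reference: Pol II from cells with no treatment, Med26 and Pol II from cells given an siRNA against Cbx3 for the same 72 hours, Cdk8 under control siRNA, and 2 sets of Cbx3 from cells with no treatment. Those cells share the line, differentiation and crosslinking. Markers of neural progenitors were not checked here, because gene positions on the genome build of the files were not used.

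Mediator passes signals from DNA-bound transcription factors to Pol II at promoters. Med26 is known to join the form of Mediator that holds Pol II, and its N-terminal domain is known to bring in elongation factors. Pol II itself gathers at start sites, where it often pauses before it moves into the gene.

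The members are regions of listed signal. Each deposited file lists windows of 50 bp with the authors' signal value, and windows up to 200 bp apart were merged. This gave 16073 Pol II and 5990 Med26 regions, together 22063 of the 605681 regions in all 9 ChIP libraries of the series. A region took the signal of its top window, and signals were compared by rank within a file, since the 2 files need not share a scale. Pol II was listed over 5800 kb and Med26 over 777 kb. A Pol II region spanned a median of 300 bp (quartiles 100 and 550 bp, longest 5500 bp), and a Med26 region 100 bp (50 and 150 bp, longest 1050 bp). Single windows made up 15.3% of Pol II and 35.5% of Med26 regions. Total reads per library are unknown, and a window missing from a list may hold signal that did not meet the authors' selection; the lowest listed signal was 6.01 in both files. Intervals are 95% Wilson intervals of counts. They cover counting error only, as neighbouring windows share reads.

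Med26 lay mostly where Pol II lay, while most Pol II regions held no listed Med26. A Pol II and a Med26 region were called shared when they had at least 1 bp in common. Of the 5990 Med26 regions, 4484 held Pol II (74.9%, interval 73.7 to 75.9%). Of the 16073 Pol II regions, 4098 held Med26 (25.5%, interval 24.8 to 26.2%). By windows the picture was the same, with 11932 of the 15546 Med26 windows also listed for Pol II (76.8%) and the same 11932 making up 10.3% of the 116001 Pol II windows.

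The shared regions with high ranks in both lists show the sites with the most of both factors. The region with the highest signal in both lists was on chromosome 17 from 39980251 to 39982250, with a Pol II signal of 157.6 and a Med26 signal of 144.7 in the same window. That place is listed in all 9 libraries, Cbx3 included, so its signal is not particular to these 2 factors. On chromosome 4 from 131825651 to 131826450, Pol II reached 152.9 (the 3rd highest region) and Med26 52.6 (the 12th), with their highest windows 150 bp apart. This region was also listed for Pol II in untreated cells (102.0) and after Cbx3 siRNA (115.7), and for Med26 after Cbx3 siRNA (17.8). On chromosome 8 from 23969351 to 23970200 the signals were 94.5 for Pol II and 38.5 for Med26, 450 bp apart. On chromosome 11 a pair of neighbouring regions, from 87235951 to 87237000 and from 87240051 to 87240800, had Pol II signals of 141.0 and 125.5 and Med26 signals of 27.9 and 27.0, each with the highest windows 200 bp apart. Of the 10 shared regions whose lower rank was highest, all 10 were listed for Pol II in untreated and in Cbx3 siRNA cells and 9 for Med26 after Cbx3 siRNA. Over all 4098 shared regions these shares were 80.6%, 97.2% and 15.9%. In the 1007 shared regions of the highest decile of Pol II signal they were 98.9%, 100% and 23.4%. Cdk8 was listed at 4 of the 10, which include both in the chromosome 17 locus, beside 7.14% of all control Pol II regions.

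The share of Pol II regions with Med26 rose with Pol II signal in every decile of the list. In the lowest decile, 3 of 1607 regions held Med26 (0.187%, interval 0.0635 to 0.547%). This low end depends on which regions enter, as it was 4.07% with windows at or above their file's median. It was 37.7% when the Pol II list was cut to its 5990 highest regions, to equal the number of Med26 regions. The share was 16.7% in the 5th decile, where the highest window read 14.4 to 18.0. It reached 62.6% in the highest decile (1007 of 1608, interval 60.2 to 65.0%), where Pol II read 40.5 or more. The remaining 601 regions of the highest decile had no listed Med26. Shared Pol II regions had a median rank percentile of 77.8 within the Pol II list, against 38.4 for those without Med26.

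**Figure D1:**
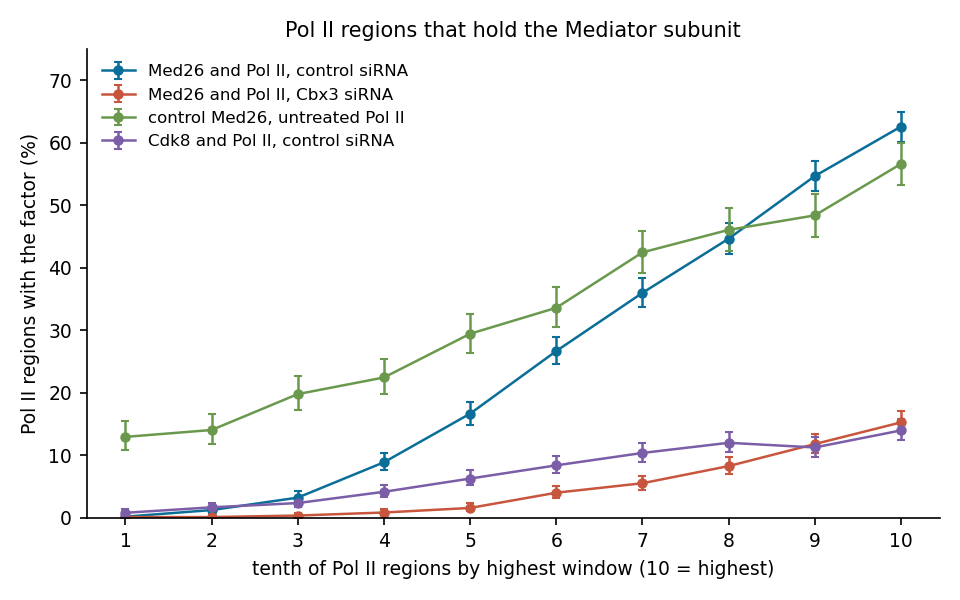
Share of Pol II regions (y axis, %) that hold Med26 or Cdk8, by decile of the Pol II regions ranked on their highest window (x axis, 10 is highest), in 4 library pairs, with 95% Wilson intervals as bars. Under control siRNA the share with Med26 climbs from 0.187% to 62.6%, and with Cdk8 it ends at 14.0%.

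In other library pairs the share also rose from the lowest to the highest decile, but to other levels. With untreated Pol II and the same control Med26 library, 32.6% of 8183 Pol II regions held Med26, from 13.0% in the lowest decile to 56.7% in the highest. After Cbx3 siRNA, where Med26 listed 1745 regions, 4.8% of 16426 Pol II regions held Med26, from 0.122% to 15.3%. Cdk8, the kinase of Mediator's detachable module, lay in 7.14% of control Pol II regions and in 14.0% of the highest decile. The untreated and the Cdk8 comparison each share 1 library with the control pair. Med26 listed 5990 regions in the control and 1745 after Cbx3 siRNA, and the untreated Pol II list started at a signal of 9.02, so the levels of these shares are not on an equal footing.

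Wide Pol II regions held Med26 more often than narrow ones. Classes of span include their upper bound. Among single windows 20 of 2463 held it (0.812%), and among regions of 200 to 400 bp 984 of 3842 did (25.6%). The share was 46.1% at 400 to 800 bp, 61.9% at 800 to 1600 bp and 77.6% above 1600 bp (83 of 107, interval 68.8 to 84.4%). Width and signal went together. Within the highest quintile of Pol II signal the share still rose with width, from 41.9% at 200 to 400 bp (interval 38.2 to 45.8%) to 59.1% at 400 to 800 bp, 69.9% at 800 to 1600 bp and 83.1% above 1600 bp (interval 73.2 to 89.9%). In the next lower quintile it rose from 31.8% to 45.4%, 53.7% and 65.4%, the last over only 26 regions.

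A wider region offers more places for an overlap, so the same question was asked in a stretch of equal size: whether a Med26 window lay within 100 bp of the highest Pol II window. Over all regions this held for 3277 of 16073 (20.4%, interval 19.8 to 21.0%). On this measure, the share in the highest quintile was 39.8% at 200 to 400 bp, 44.9% at 400 to 800 bp, 48.6% at 800 to 1600 bp and 49.4% above 1600 bp (interval 38.5 to 60.3%). In this quintile the rise was smaller than for Med26 anywhere in the region but remained. The interval at 800 to 1600 bp (45.1 to 52.2%) lay above that at 200 to 400 bp (36.0 to 43.6%). Lower quintiles showed no such separation between these widths. At 200 to 400, 400 to 800 and 800 to 1600 bp the share was 29.2%, 33.2% and 34.3% in quintile 4. In quintile 3 it was 20.3%, 18.4% and 27.4%. The intervals of the first and last of these widths overlapped in both. Quintile 2 had 8.65% and 8.89% at the first 2 widths. Narrower regions, of 100 to 200 bp, did stand apart in quintiles 3 and 4. In quintile 3 their share was 12.7% (interval 10.5 to 15.3%), below the interval at 200 to 400 bp (18.2 to 22.6%). In quintile 4 it was 20.6% (interval 15.2 to 27.3%), below the interval at 400 to 800 bp (30.9 to 35.6%) but overlapping that at 200 to 400 bp. Between signal quintiles the fixed stretch still differed: at 400 to 800 bp it held Med26 in 8.89% of regions of quintile 2, 18.4% in quintile 3, 33.2% in quintile 4 and 44.9% in quintile 5. Of the regions with Med26, 941 (23.0%) had none within 100 bp of their highest Pol II window.

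**Figure D2:**
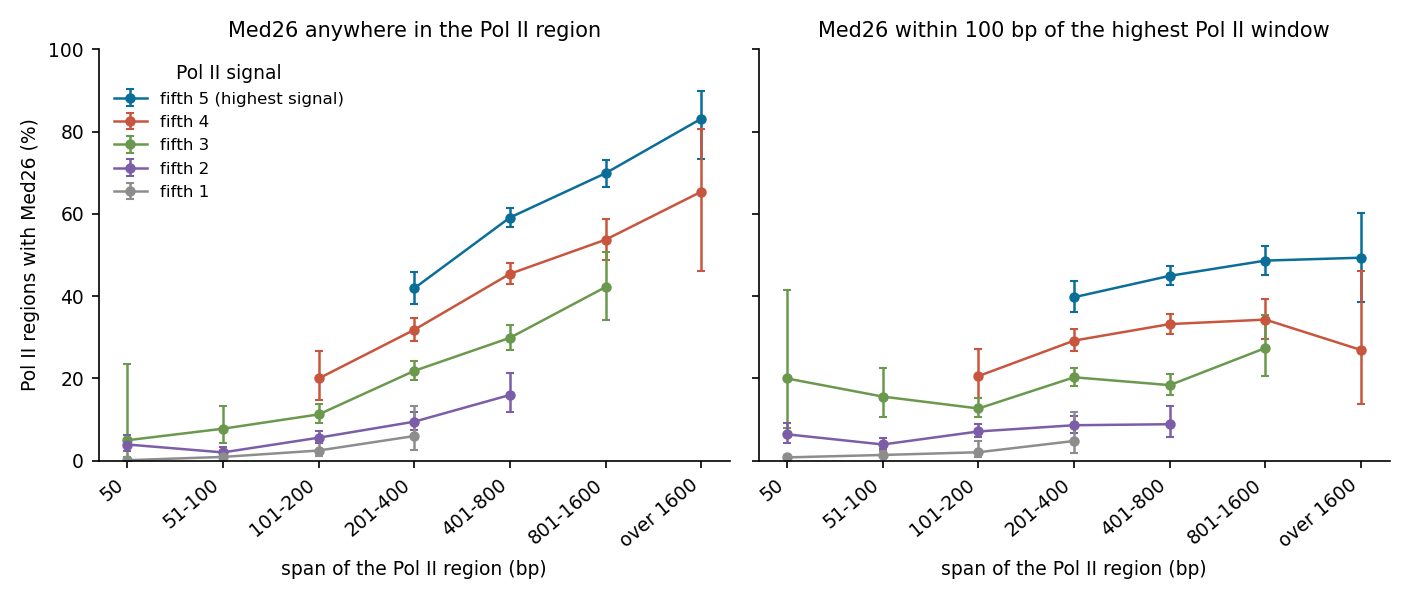
Share of Pol II regions with Med26 (y axis, %) by span of the Pol II region (x axis, bp), 1 line for each quintile of Pol II signal, with 95% Wilson intervals; classes of under 20 regions are left out. The left panel counts Med26 anywhere in the region, and the right panel counts only Med26 within 100 bp of the highest Pol II window, where the top line runs from 39.8% to 49.4% over the same widths that take it from 41.9% to 83.1% on the left.

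From the side of Med26, the share with Pol II also rose with signal. It was 35.2% in the lowest decile of Med26 regions (211 of 599, interval 31.5 to 39.1%), 79.6% in the 5th and 97.7% in the highest (585 of 599, interval 96.1 to 98.6%). Single Med26 windows held Pol II in 53.0% of cases, regions of 100 to 200 bp in 91.6%, and all 207 of 400 to 800 bp and all 7 longer ones held it. With untreated Pol II the share went from 13.7% to 81.1%, and after Cbx3 siRNA, with both factors from other libraries, from 20.1% to 89.7% (157 of 175, interval 84.3 to 93.4%). For Cdk8 the highest decile held Pol II in 40.3% of cases, below its 9th decile at 50.6%.

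**Figure D3:**
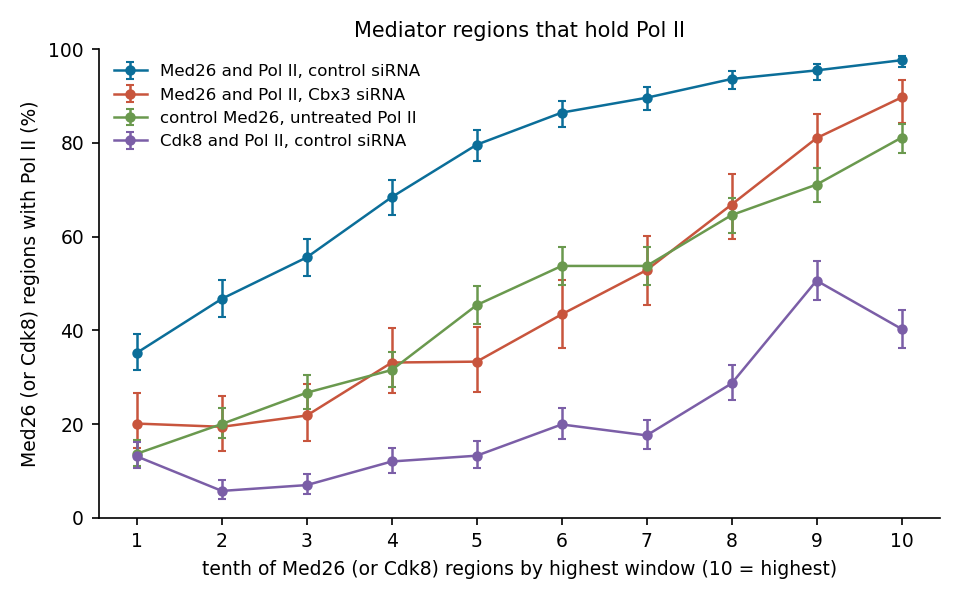
Share of Med26 or Cdk8 regions that hold Pol II (y axis, %) by decile of those regions ranked on their highest window (x axis, 10 is highest), in the same 4 library pairs, with 95% Wilson intervals. Control Med26 runs from 35.2% to 97.7%, and Cdk8 stays at 50.6% or lower.

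Signal ranks of the 2 factors within shared regions were only loosely related. Across the 4098 shared regions Spearman's rho was 0.23 and Pearson's r of the rank percentiles 0.23. In the 11932 windows of both lists rho was 0.20. These describe regions and windows of the same 2 libraries, which are not replicates. The median rank percentile of Med26 was between 44.7 and 50.9 at shared regions of the 3rd to 5th Pol II deciles and rose to 71.9 at those of the highest. Of the 1007 shared regions in the highest Pol II decile, 210 (20.9%) also held Med26 of the highest Med26 decile. Of all 4098 shared regions 579 did, and of the 879 in the 9th Pol II decile 139 did (15.8%). After Cbx3 siRNA rho was 0.08 over 788 regions.

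Within shared regions, the highest Med26 window lay close to the highest Pol II window but usually not in it. The median distance between their centres was 100 bp (quartiles 50 and 200 bp, n = 4098). The highest windows were the same in 591 regions (14.4%). They lay within 50 bp in 1757 (42.9%), within 100 bp in 2556 (62.4%, interval 60.9 to 63.8%), within 200 bp in 3223 (78.6%) and over 500 bp apart in 128 (3.12%). A median of 22.2% of a region's Pol II windows were also listed for Med26 (quartiles 13.3 and 37.5%). The highest Pol II window lay inside a Med26 region in 40.4% of shared Pol II regions, and the highest Med26 window lay inside a Pol II region in 95.5% of shared Med26 regions.

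Libraries of the same antibody were set beside these distances. At the shared regions also listed in untreated cells, the highest Pol II windows of the control and the untreated library were within 100 bp in 81.3% of 3305 cases (interval 79.9 to 82.6%). Against Pol II after Cbx3 siRNA it was 82.3% of 3984. The highest Med26 windows of the control and the Cbx3 siRNA library were within 100 bp in 90.1% of 516 regions (interval 87.2 to 92.4%). Region width bounds these distances: Med26 regions spanned a median of 100 bp in the control and 50 bp after Cbx3 siRNA, and at Pol II spans of 100 to 200 bp Med26 against Pol II itself reached 91.0%. The pairs of 1 antibody are therefore no test of how precisely Med26 and Pol II coincide. The share was 64.5% for Med26 against Pol II after Cbx3 siRNA (interval 61.1 to 67.7%), 74.7% for control Med26 against untreated Pol II, and 47.7% for Cdk8 against Pol II under control siRNA (interval 44.8 to 50.6%). Several of these pairs share a library, and untreated Pol II regions are narrower, with a median span of 150 bp against 300 bp in the control.

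**Figure D4:**
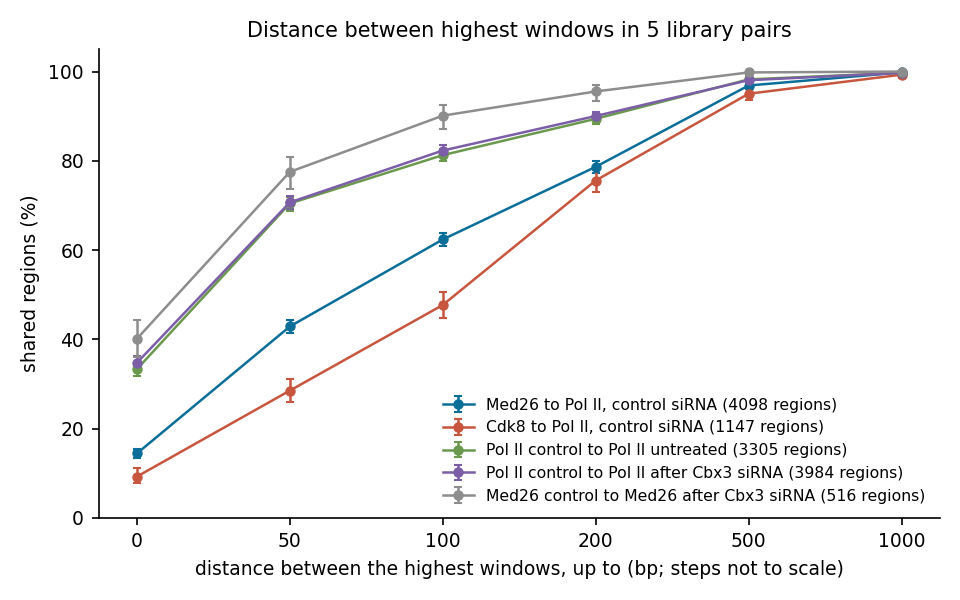
Cumulative share of shared regions (y axis, %) whose highest windows lie up to a given distance apart (x axis, bp, steps not to scale), for 5 library pairs, with 95% Wilson intervals; both Pol II pairs are limited to regions with control Med26. At 100 bp, Med26 against Pol II stands at 62.4%, Cdk8 against Pol II at 47.7% and the pairs of 1 antibody at 81.3% or higher.

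Distances grew with the width of the Pol II region. The median was 50 bp at 200 to 400 bp, 100 bp at 400 to 800 bp, 150 bp at 800 to 1600 bp and 350 bp above 1600 bp, where 34.9% of 83 regions had distances over 500 bp. With Pol II signal the share within 100 bp fell, from 76.9% in the 3rd decile and 70.6% in the 4th (interval 62.7 to 77.5%) to 65.0% in the 6th and 58.7% in the highest (interval 55.6 to 61.7%), while the regions also widened. Across the deciles of Med26 signal it stayed between 58.7% and 65.6%. The largest distance was 1450 bp, on chromosome 3 from 61166851 to 61168950, where the highest Pol II window (30.7) started at 61168501 and the highest Med26 window (15.0) at 61167051. Med26 listed 800 bp there, and Pol II was also listed in untreated (30.8) and Cbx3 siRNA (26.3) cells. On chromosome 10 from 39977251 to 39978900, a site with the 2nd highest Pol II signal (157.1), Med26 (27.9) peaked 1050 bp away. On chromosome 6 from 86475851 to 86477600 the distance was 1150 bp with signals of 37.8 and 17.03.

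The side of the distance was read from the shape of Pol II, since the files carry no strand. Each region was turned so that the longer stretch of Pol II from its highest window pointed one way, which left out 411 regions with equal stretches. Of the remaining 3687 regions, Med26 peaked towards the longer side in 1888 (51.2%), towards the shorter side in 1284 (34.8%) and in the same place in 515 (14.0%). The longer side held a mean of 68.6% of the region's span. Near the Pol II peak the order was the opposite: at 25 to 100 bp, 946 regions had Med26 on the shorter and 770 on the longer side. Beyond 200 and up to 400 bp the counts were 521 on the longer and 80 on the shorter side, and beyond 400 bp 228 and 16. The room on each side differs, since sharing needs listed Pol II and the median stretch was 374.5 bp on the longer and 174.5 bp on the shorter side. How far this sets the counts was not tested. Listed Med26 windows were also divided by listed Pol II windows at the same distance. This ratio was higher on the shorter side at 200 bp from the Pol II peak (30.1% against 22.1%). The same held at 300 bp (25.3% against 20.8%) and 400 bp (22.3% against 19.0%). Further out the order varied, with 13.7% on the shorter against 16.7% on the longer side at 550 bp. It was 11.4% against 15.9% at 600 bp and 10.9% against 7.44% at 1000 bp. In the 625 regions where Pol II reached at least 6 windows past the peak on both sides, a set chosen after seeing the data, 25 to 100 bp gave 122 on the longer and 116 on the shorter side, the next distances up to 200 bp gave 41 and 63, those up to 400 bp gave 79 and 59, and longer ones 65 and 15.

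**Figure D5:**
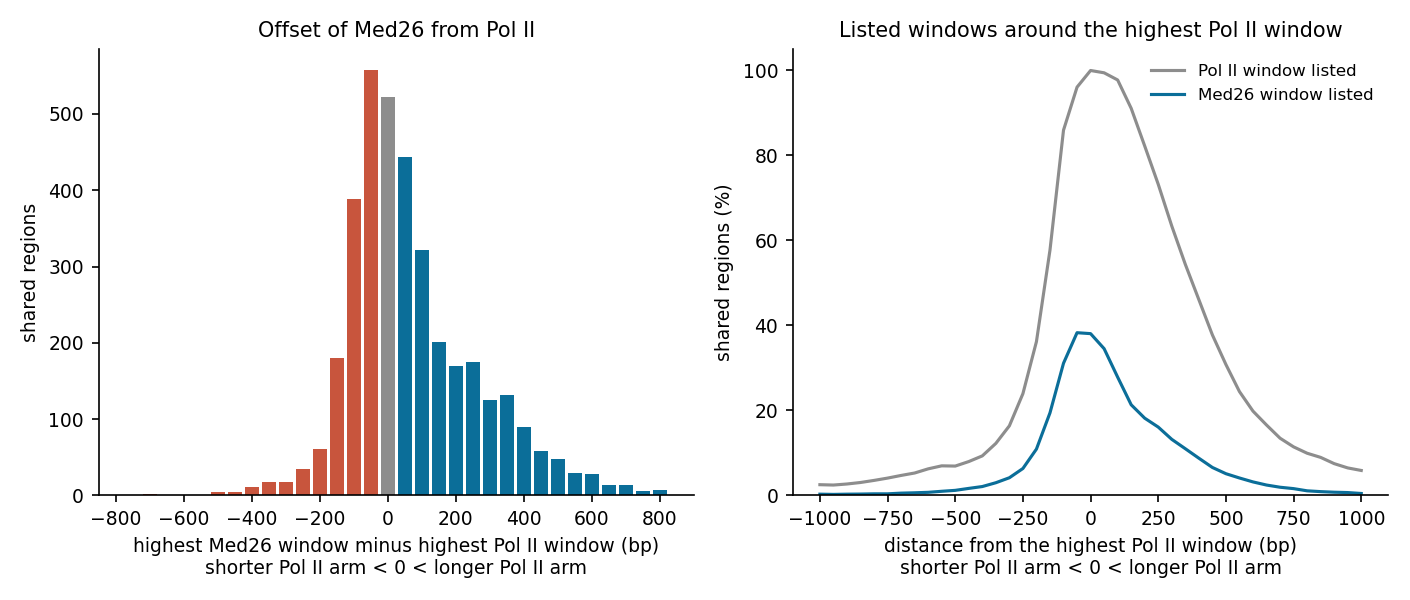
Left, number of shared regions (y axis) by distance of the highest Med26 from the highest Pol II window (x axis, bp, rounded to 50 bp, shown to 800 bp), with the longer Pol II side at positive values. Right, share of those regions (y axis, %) with a listed Pol II or Med26 window at each distance from the highest Pol II window (x axis, bp); Med26 is listed in 38.1% at the Pol II peak, in 31.1% at 100 bp on the shorter side and in 27.8% at 100 bp on the longer side.

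Pol II signal under displaced Med26 was lower than the Pol II peak, as the definition of the peak requires. At distances of 50 to 100 bp, Pol II under the highest Med26 window stood at a median of 85.7% of its regional maximum (n = 1892). At 250 to 400 bp it stood at 56.6% (quartiles 42.9 and 68.7%, n = 551).

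Some Pol II regions held several separate Med26 regions. One Med26 region was found in 3728, a pair in 351, and 3 or 4 in the other 19. Where there was a pair, the highest Pol II window lay between both Med26 peaks in 248 regions (70.7%, interval 65.7 to 75.2%), which were a median of 450 bp apart (quartiles 400 and 600 bp). Those Pol II regions spanned a median of 850 bp, against 550 bp with a single Med26 region. Merging keeps separate Med26 regions over 200 bp apart, and the share that spacing alone would give was not computed. The 70.7% is therefore a description only. The longest listed Med26 at a Pol II region was 1000 bp on chromosome 17 from 34255401 to 34260050, where Pol II listed 4250 bp and both had the same highest window. Next came chromosome 15 from 96116901 to 96118150 and chromosome 2 from 126500351 to 126501800, with 900 bp of Med26 each and peaks 100 and 500 bp from those of Pol II.

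Cdk8 and Med26 were in the same Pol II regions more often than their shares over all Pol II regions, though the rank of Pol II goes with both. Of the 4098 Pol II regions with Med26, 525 also held Cdk8 (12.8%, beside 7.14% of all Pol II regions). These are 45.8% of the 1147 Pol II regions with Cdk8, beside the 25.5% of all that held Med26. Among Pol II regions without Med26, weighted to the same Pol II deciles, 9.68% held Cdk8. In 148 of these 525 (28.2%) the Med26 and Cdk8 regions themselves overlapped. Their highest windows were a median of 200 bp apart (quartiles 100 and 300 bp), and lay on opposite sides of the Pol II peak in 198.

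Strong Pol II regions without Med26 were nearly all listed for Pol II in the other libraries too. In the highest decile, 591 of 601 without Med26 (98.3%) and 996 of 1007 with it (98.9%) were listed in untreated cells, and 600 and 1007 after Cbx3 siRNA. They were somewhat narrower, with a median span of 550 bp against 700 bp. Cdk8 lay in 13.0% of those without Med26 (interval 10.5 to 15.9%) and in 14.6% of those with it (12.6 to 16.9%), and Cbx3 of both sets in 6.82% and 8.14%, with overlapping intervals. Cbx3 of set 1 alone lay in 60.6% of those without Med26 (interval 56.6 to 64.4%) and in 68.2% of those with it (65.3 to 71.0%), intervals that do not overlap. Over Pol II regions of all deciles, it lay in 32.9% of those without Med26 and in 59.7% of those with it. The difference in span was not taken out of these shares. Outside the chromosome 17 locus, the strongest were on chromosome 11 from 87256801 to 87257400 (Pol II 139.5, the 9th highest) and from 87275901 to 87276400 (104.96), chromosome 13 from 81022051 to 81023300 (98.0) and chromosome 3 from 108374351 to 108374800 (95.7). The first 2 lie near the shared pair on chromosome 11. All 4 were listed in both other Pol II libraries, and in no Med26 or Cdk8 library under either siRNA.

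The Med26 library after Cbx3 siRNA, which had no part in defining the groups, lay more often at control Pol II regions with Med26 than at those without. It was listed at 650 of 4098 with Med26 (15.9%, interval 14.8 to 17.01%) and at 194 of 11975 without (1.62%, interval 1.41 to 1.86%). With deciles of Pol II signal weighted as among regions with Med26, the share without was 4.11%. Width was not weighted, and regions with Med26 spanned a median of 550 bp against 200 bp for those without. In the highest decile alone it was 236 of 1007 (23.4%, interval 20.9 to 26.2%) against 42 of 601 (6.99%, interval 5.21 to 9.31%). Over all control Pol II regions, 67.9% were listed for Pol II after Cbx3 siRNA and 44.3% in untreated cells. For regions with Med26 these were 97.2% and 80.6%, and for regions without, weighted in the same way, 94.3% and 74.4%. Cbx3 of both sets lay in 5.53% of all control Pol II regions, in 8.66% of those with Med26 and, weighted, in 6.15% of those without.

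Med26 away from Pol II was weak and narrow. The 1506 Med26 regions without Pol II had a median rank percentile of 22.1 against 60.3 for those with it, and 66.5% were single windows against 25.2%. Of the 1506, 542 (36.0%) ended within 200 bp of a Pol II region, 250 of them directly beside one, so that 5026 of all Med26 regions (83.9%) touched or lay within 200 bp of listed Pol II. At the other end, 687 were over 10 kb from any Pol II region. The near ones had a median rank percentile of 36.3, and 194 (35.8%) held Pol II of the Cbx3 siRNA library. Of the far ones, with a median rank percentile of 15.7 and 78.9% single windows, 19 (2.77%) held that Pol II, 2 held untreated Pol II, 3 were listed for Med26 after Cbx3 siRNA and 5 held Cbx3 of both sets. Over all control Med26 regions, 2.59% held Cdk8, 46.2% held untreated Pol II and 8.61% were listed after Cbx3 siRNA. Of the 4484 Med26 regions with control Pol II, 88.8% held Pol II after Cbx3 siRNA, 60.4% untreated Pol II and 5.35% Cbx3 of both sets. For all 1506 without it these were 15.3%, 3.72% and 1.73%.

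Few Med26 regions without Pol II had high signal, and only 14 were in the highest decile. The highest was on chromosome 17 from 39982701 to 39983000 (136.7), directly beside a Pol II window in the locus listed in all 9 libraries. The next, on chromosome 11 from 3093151 to 3093300 (69.4), lay 100 bp from a Pol II region and in 19350 bp of listed Cbx3 of set 1. Cbx3 of set 2, Cdk8 under control siRNA (76.2, rank percentile 99.7) and Pol II after Cbx3 siRNA (75.5, rank percentile 99.7) were listed there too. High signal at this site is thus not particular to Med26. On chromosome 11 from 107015651 to 107015850 (23.98) Med26 was 22000 bp from Pol II and listed in no other library. On chromosome 4 from 120770851 to 120771100 (20.9) it was 80850 bp from Pol II, and Med26 was listed there after Cbx3 siRNA too (11.3).

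By chromosome, the share of Pol II regions with Med26 ran from 21.9% on chromosome 7 to 30.4% on chromosome 16, and stood apart on chromosome X at 32 of 396 (8.08%, interval 5.78 to 11.2%). Pol II on X was also weaker, with a median rank percentile of 33.3. From its signal deciles alone, 12.6% would hold Med26 at the shares of all chromosomes, a value above the interval. By this measure chromosome 10 also lay below its expected value (22.4%, interval 19.6 to 25.4%, expected 25.8%). Chromosome 6 lay above it (28.6%, interval 25.4 to 31.9%, expected 24.7%). After Cbx3 siRNA, X had 4 of 369 (1.08%, interval 0.422 to 2.75%), where 4.8% of all Pol II regions held Med26. With untreated Pol II and the same control Med26 library, X had 9 of 89 (10.1%, interval 5.41 to 18.1%) against 32.6% in all. For these other pairs no value was expected from signal. The Med26 regions that X did have, 44 in number, held Pol II in 72.7% of cases, close to the 74.9% of all.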

How the data were processed

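ChIP-seq window lists were analysed for Med26 and Pol II under control siRNA, with the other 7 ChIP libraries as reference; the 7 input libraries were not used here. Per the submitters' processing notes, the authors aligned with Bowtie to genome build mm9. The deposited values are a signal per 50 bp window, and for these the window test, threshold, scaling and any use of inputs were not given in the sources used here. Values were therefore used by rank within a file. Windows up to 200 bp apart were merged, and overlap needed 1 bp. Equal highest windows were averaged. Named regions were the 10 first of 5 rankings (both ranks, Med26 length, signal without the other factor, distance). The steps of merging, sharing and distance were tested on simulated data. Members, measures and rankings were chosen with earlier results of these data known. Coordinates count from 1 on the build of the files. Promoter and gene list comparisons were not run and no sequence is printed, because the reference tables used here are of another build. Scripts ran on Python 3.11.15 with pandas 2.3.3, matplotlib 3.10.9, numpy 2.4.6 and scipy 1.17.1.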

Additional observations from a re-analysis of the deposited data

How the results depend on the processing

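Of 60 recomputed values of the 5 main results, 33 moved by less than their interval and 27 moved beyond it. Only the side of the distance, with 13 of these values, could change direction, and 0 did. The longer side offers more room, and the ratio to listed Pol II windows is not among these values. The count of 0 is therefore no test of the side. Shares and absolute distances cannot change direction. The cause was not tested except where the setting fixes it. In the setting of equal numbers, the Pol II list was cut to its 5990 highest regions and all Med26 regions were kept. The share of Pol II regions with Med26 (25.5%) was 23.7% with only touching windows merged, 28.8% with windows up to 500 bp apart merged, 50.9% with equal numbers, 23.1% without single-window regions, 23.7% with windows at or above their file's median, 32.6% with untreated Pol II, 4.80% after Cbx3 siRNA and 20.4% within 100 bp of the highest Pol II window. The share of Med26 regions with Pol II (74.9%) was 73.3% with an overlap of 50% of the shorter region, 56.9% with equal numbers, 86.5% without single windows, 77.9% with windows above the median, 46.2% with untreated Pol II and 46.2% after Cbx3 siRNA. The share in the lowest Pol II decile (0.187%) was 37.7% with equal numbers, 4.07% above the median, 0.955% without single windows and 13.0% with untreated Pol II. The share in the highest Pol II decile (62.6%) was 66.1% with equal numbers, 68.2% with summed signal, 53.8% without single windows, 47.4% above the median, 56.7% with untreated Pol II and 15.3% after Cbx3 siRNA. Spearman's rho (0.23) was 0.12 with equal numbers, 0.09 above the median, 0.14 with untreated Pol II and 0.08 after Cbx3 siRNA. The median distance (100 bp) was 50 bp with untreated Pol II and 103.9 bp between signal-weighted centres. For the side, regions with both peaks in the same place were left out, so that Med26 lay on the longer Pol II side in 1888 of 3172 (59.5%). This share was 57.4% with equal numbers, 56.9% above the median, 64.5% with untreated Pol II, 62.9% after Cbx3 siRNA and 54.8% where both sides were long, a setting added after seeing the data. Leaving out chromosome 17 from 39 to 40 Mb, also added then, moved no value beyond its interval. No paired analysis was possible because each group had 1 library per antibody, so no replicate could be left out either. Depth is unknown. A window absent from a list may hold signal that did not meet the authors' selection, which is not given in the sources used.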

Other observations

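Among stretches of 1 Mb, chromosome 7 from 52 to 53 Mb held the most Pol II regions with Med26, 18 of 76 Pol II regions (23.7%), below the 25.5% of the whole list. On chromosome 4 from 116 to 117 Mb, 17 of 30 Pol II regions held Med26 (56.7%), and on chromosome 10 from 79 to 80 Mb 13 of 82 did (15.9%). These stretches were picked for their counts, so their shares are descriptions only, and clustering was not tested.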
